A study of Mus musculus with 6 samples.

Results

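The genes described here are 10 components of the canonical Wnt pathway, chosen by symbol: the Tcf/Lef transcription factors Lef1, Tcf7, Tcf7l1 and Tcf7l2, the target genes Axin2, Sp5 and Apcdd1, and the secreted antagonists Dkk1, Wif1 and Sfrp1. All 10 were found among the 48526 gene identifiers of the count table by their GENCODE M21 symbols, and all 10 were among the 20549 genes with enough reads to be tested. RNA was sequenced from neural progenitors grown out of mouse embryonic stem cells (mESCs), in 3 libraries of a control line labelled flox/flox for Dmrta2 and 3 of a line labelled -/-. Each genotype was 1 line, so genotype and line cannot be told apart, and p-values measure the spread between samples of a line. Both lines were treated alike: LDN193189 (100 nM, a BMP receptor inhibitor) and SB431542 (10 µM, an activin and TGF-beta receptor inhibitor) were given until day 4, and cyclopamine (1 µM, a Hedgehog pathway inhibitor) from day 2 on. XAV939 (1 µM), which inhibits tankyrases and so stabilises Axin and dampens Wnt signalling, was given from day 0 until day 6. Cells were replated on day 5 and RNA was taken on day 8, when XAV939 was no longer in the medium of either group.

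Wnt ligands bind Frizzled and Lrp receptors and stop the destruction complex of Axin, Apc and Gsk3 from marking beta-catenin for degradation. Beta-catenin then enters the nucleus and turns Tcf/Lef factors, which otherwise hold targets silent with Groucho corepressors, into activators. In the forebrain, Wnts from the cortical hem at the dorsal midline pattern the cortex and hippocampus, and Tcf7l2 is also a known marker of the developing thalamus and pretectum. Dmrta2 encodes a zinc finger transcription factor of dorsal telencephalic progenitors.

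Libraries held 24565560 to 39646793 counts, and levels are in CPM (read counts relative to the TMM-scaled library total), where 1 CPM stands for 25.1 to 39.3 reads. Dmrta2 itself measured 85.2, 75.1 and 79.2 CPM in libraries A, B and C of flox/flox and 409, 414 and 439 CPM in those of -/-. This is not the direction that loss of the whole transcript would give. Since the labels do not name the deleted part, the count is no check of the genotype, and every direction below is that of the libraries labelled -/-. Fixed neural progenitor markers were present in all libraries, with a summed level of 4270 to 4890 CPM in flox/flox and 4300 to 4580 CPM in -/-. Of these 14 markers, 8 rose and 5 fell. Among 14 markers of postmitotic neurons 13 rose and 0 fell, and their sum went from 1920, 2340 and 3010 CPM in libraries A, B and C of flox/flox to 3620, 4040 and 5960 CPM in those of -/-. Among 16 markers of cortical hem, roof plate and choroid plexus 0 rose and 13 fell, and their sum was 1990, 1330 and 1280 CPM in libraries A, B and C of flox/flox and 368, 342 and 291 CPM in those of -/-. This hem list holds Wnt2b, Wnt3a, Wnt8b, Rspo2 and Rspo3, which are counted again in the pathway lists below. In flox/flox A, Rspo2, Wnt8b and Rspo3 measured 582, 498 and 220 of the 1990 CPM. The summed level of the hem list is thus not separate from the falls of these genes. Its 13 falls are more than these shared genes alone can give. Summed levels of 4 other marker lists were also lower in -/- without overlap: midbrain and hindbrain (50.2 to 77.3 CPM in flox/flox and 19.3 to 28.5 CPM in -/-), surface epithelium (273 to 386 and 97.4 to 168), pluripotency (113 to 121 and 66.5 to 92.4) and mesoderm and endoderm (87.8 to 143 and 44.1 to 75.2). Of their tested genes, 0 rose and 5 of 9 fell, 0 rose and 3 of 5 fell, 0 rose and 4 of 9 fell, and 3 rose and 2 of 8 fell, in that order. The neural crest list overlapped, at 67.0 to 86.8 CPM and 76.6 to 133 CPM, with 3 of 7 genes higher and 3 lower. No marker of these lists was at 0 in all libraries, and their part in the values of the 10 genes was not tested. In bulk RNA, fewer cells of a type and less RNA per cell cannot be told apart. Genes on chromosome 11, which carries Tcf7 and Axin2, were shifted as a group. The median log2 fold change of its 1589 tested genes was 0.49, against -0.02 for all other genes.

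Of the 10 genes, 6 fell, 2 rose and 2 did not pass the threshold of adjusted p = 0.05 (edgeR's quasi-likelihood test, Benjamini-Hochberg over all genes tested). Lef1, Tcf7l1, Sp5, Apcdd1, Wif1 and Sfrp1 were lower in the libraries labelled -/-, Tcf7l2 and Dkk1 were higher, and Tcf7 and Axin2 were not called. Of all genes tested 35.3% passed, 17.9% higher and 17.4% lower. The median log2 fold change of the 10 genes was -0.60, beside -0.0025 over all genes tested. For 8 of the 10 genes the groups were apart, without overlap, as they were for 51.0% of all genes tested. Without flox/flox B, 6 of the 10 passed and 1 of these rose. Without -/- B, 4 passed, of which 1 rose and 3 fell. Calls over all genes also dropped in these fits, from 7250 to 4717 and 5019, in that order.

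**Figure D1:**
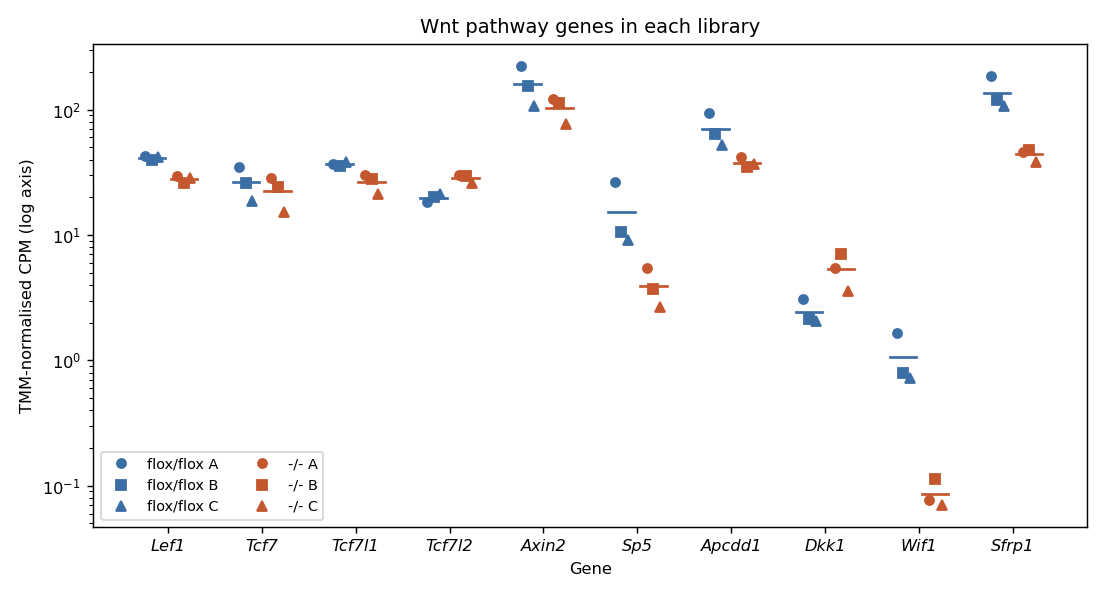
TMM-normalised CPM (log axis) of the 10 genes in the 3 flox/flox libraries (blue) and the 3 libraries labelled -/- (orange), with a bar at each group mean and a symbol for the column letter. The groups are apart for 8 genes and overlap for Tcf7 and Axin2, and Wif1 lies below 1 CPM in 5 of the 6 libraries.

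Tcf7l2 rose and Lef1 and Tcf7l1 fell, each by less than 1.5-fold. Among the libraries labelled -/- the highest and lowest differed by 1.14-fold for Tcf7l2, 1.15-fold for Lef1 and 1.403-fold for Tcf7l1, where that spread was no smaller than the fall. Tcf7l2 (ENSMUSG00000024985, chr19:55741820-55933654, plus strand), which encodes Tcf4, measured 18.3, 20.2 and 21.1 CPM in libraries A, B and C of flox/flox and 30.0, 29.5 and 26.2 CPM in those of -/-. All -/- libraries were above all controls. The log2 fold change was 0.52 ± 0.09 (SE), a 1.44-fold rise (adjusted p = 0.00389, edgeR). It passed in each of 15 alternative settings. Lef1 (ENSMUSG00000027985, chr3:131110471-131224356, plus strand), mostly an activator and itself a Wnt target, measured 42.9, 39.5 and 42.2 CPM in flox/flox and 29.7, 25.8 and 28.4 CPM in -/-. The groups were well apart, and the control libraries differed by 1.09-fold at most. The log2 fold change was -0.57 ± 0.08, a 1.49-fold fall (adjusted p = 0.00155, edgeR), which also passed in all 15 settings. Exons of Gm43352 on the other strand cover 13.7% of the exonic bases of Lef1, and whether counting used strand is not given in the sources used here.

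Tcf7l1 (ENSMUSG00000055799, chr6:72626378-72789254, minus strand), which encodes Tcf3, the family's main repressor in stem cells and early neural tissue, measured 37.1, 35.5 and 38.3 CPM in flox/flox and 30.1, 28.1 and 21.4 CPM in -/-. Each -/- library was below each control, and -/- C was lowest. The log2 fold change was -0.48 ± 0.12, a 1.39-fold fall (adjusted p = 0.0210, edgeR). The call was lost on leaving out flox/flox A (0.0525), B (0.0556) or C (0.0529) or -/- B (0.0534), and at a threshold of 0.01. The range over alternatives was 0.00408 to 0.0556, and the sign stayed negative. Tcf7 (ENSMUSG00000000782, chr11:52252371-52283014, minus strand), which encodes Tcf1, measured 35.1, 25.9 and 18.8 CPM in flox/flox and 28.7, 24.1 and 15.2 CPM in -/-. The groups overlapped, and in both lines A was highest and C lowest. Its log2 difference was -0.23 ± 0.28 (95% interval -0.88 to 0.42), with an adjusted p of 0.561 in edgeR. When the letter of the column entered as a replicate block, the difference was -0.23 ± 0.07 and passed (adjusted p = 0.0432), where the range over alternatives was 0.0432 to 0.995. Without flox/flox A the difference was 0.02. With the chromosome 11 offset it was -0.75, a 1.68-fold difference that did not pass (adjusted p = 0.0786, edgeR). That offset takes the median shift of chromosome 11 in these same data as known and subtracts it.

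Per length of exon, the factors stood in the order Tcf7, Tcf7l1, Lef1 and Tcf7l2 in the flox/flox libraries. Their levels were 10.1 ± 3.11, 9.42 ± 0.354, 4.73 ± 0.209 and 2.26 ± 0.161 RPKM (CPM per kilobase of exon; SD, n = 3). Tcf7 and Tcf7l1 overlapped, and the others were apart. In the libraries labelled -/- the levels were 8.63 ± 2.63 RPKM for Tcf7, 6.76 ± 1.15 for Tcf7l1, 3.18 ± 0.223 for Lef1 and 3.25 ± 0.236 for Tcf7l2, so that Lef1 and Tcf7l2 were no longer apart. Tcf7l2 made up 7.0%, 8.96% and 9.95% of the summed RPKM of the 4 factors in libraries A, B and C of flox/flox. It made up 13.4%, 14.9% and 17.1% in those of -/-. The share of Tcf7l1 was 35.8 ± 4.39% in flox/flox and 31.0 ± 0.751% in -/-, and that of Lef1 17.9 ± 1.80% and 14.9 ± 3.11% (SD, n = 3). The level of Tcf7l2 relative to Tcf7l1 was 0.221, 0.254 and 0.246 in the controls and 0.446, 0.470 and 0.546 in -/-, with no overlap. These ratios were chosen after the values were seen and were not tested. The summed level of the 4 factors overlapped between groups, at 29.8, 25.7 and 24.1 RPKM in flox/flox and 25.4, 22.6 and 17.5 RPKM in -/-.

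**Figure D2:**
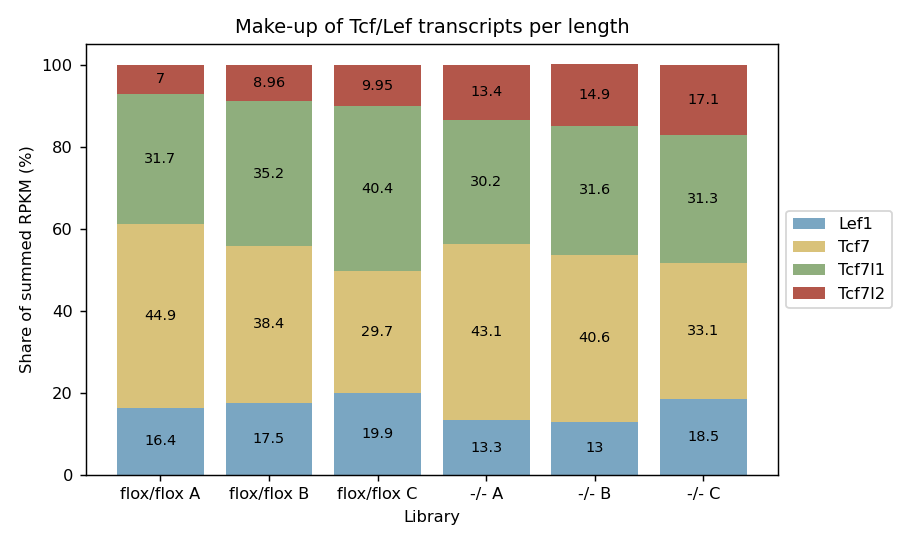
Share (percent) of each Tcf/Lef factor in the summed RPKM of the 4 genes, 1 bar per library. The Tcf7l2 segment spans 7.0% to 9.95% in flox/flox and 13.4% to 17.1% in the libraries labelled -/-, and the Tcf7 segment varies within both lines.

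Lef1, Tcf7 and Tcf7l2 have several RefSeq start sites, and some forms of these genes lack the N-terminal part that binds beta-catenin. A count per gene adds all forms together, so a change of form is not visible here. Windows from 250 bases before to 50 bases after a start were taken from RefSeq (GRCm38.p6) for the 8 matched genes (all but Apcdd1 and Sfrp1), 13 windows in all. They were searched on both strands for the Tcf/Lef core, CTTTG followed by 2 letters that are each A or T. Of the 13 windows 4 held a match (30.8%), beside 16.9% of all 32851 windows of this length. CTTTGAT alone was in 1 of the 13 (7.69%) and in 3.73% of all windows. The 13 windows are not all separate, as those of Lef1 from 131110047 and 131110073 overlap. The matching windows of Lef1, Tcf7l2 and Sp5 held 43.7%, 42% and 45% G and C, and that of Dkk1 60.7%. Windows without a match held 51.7% to 76.3%. The part of base content in these shares was not tested. For Lef1 and Tcf7l2 the match lay at the start farthest downstream, and the other windows of these genes held none. Both windows are shown because these factors moved in opposite directions. Capitals mark the matched letters.
Lef1 (chr3:131156044-131156343, plus strand): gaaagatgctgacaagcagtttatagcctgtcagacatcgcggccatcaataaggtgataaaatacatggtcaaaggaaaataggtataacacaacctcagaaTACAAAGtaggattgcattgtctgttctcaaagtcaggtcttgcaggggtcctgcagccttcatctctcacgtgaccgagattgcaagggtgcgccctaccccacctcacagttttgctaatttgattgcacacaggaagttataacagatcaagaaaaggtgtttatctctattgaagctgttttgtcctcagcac
Tcf7l2 (chr19:55895071-55895370, plus strand): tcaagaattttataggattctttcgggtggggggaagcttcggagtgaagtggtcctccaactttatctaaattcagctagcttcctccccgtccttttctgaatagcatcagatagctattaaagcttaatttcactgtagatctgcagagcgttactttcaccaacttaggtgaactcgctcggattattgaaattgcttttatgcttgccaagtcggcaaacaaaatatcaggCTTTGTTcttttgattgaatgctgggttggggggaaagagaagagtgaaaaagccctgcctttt
The Lef1 window reads the core on the minus strand at -147 to -141 from the start, and the Tcf7l2 window reads CTTTGTT at -14 to -8. No match was found in the windows of Tcf7, Tcf7l1, Axin2 and Wif1, which says only that these letters are not in those 300 bases. A match is a description of letters, not of binding.

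Among the target genes Sp5 and Apcdd1 fell, and Axin2 was lower on average without passing. Axin2 (ENSMUSG00000000142, chr11:108920349-108950783, plus strand) encodes a scaffold of the destruction complex and is the most widely used feedback target of the pathway. It measured 223, 154 and 107 CPM in libraries A, B and C of flox/flox and 122, 112 and 77.3 CPM in those of -/-. The controls spanned 2.08-fold, and flox/flox C lay below -/- A and -/- B, so the groups overlapped. The log2 difference was -0.64 ± 0.27 (SE; 95% interval -1.27 to -0.0047), with an adjusted p of 0.108 in edgeR. When the column's letter entered as a replicate block it passed, at -0.60 ± 0.09 (adjusted p = 0.00199). It also passed without flox/flox C (0.0239) and with DESeq2 (0.0417). With the chromosome 11 offset it was -1.15 and passed (adjusted p = 0.0168, edgeR). That value is relative to the shift of the chromosome and is not the plain difference between the lines. The range over alternatives was 0.00199 to 0.314. Without flox/flox A the difference was 1.26-fold in place of 1.55-fold.

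Sp5 (ENSMUSG00000075304, chr2:70474923-70477729, plus strand) encodes a zinc finger factor that is a direct target of beta-catenin and damps further Wnt activation. It measured 26.3, 10.6 and 9.20 CPM in flox/flox and 5.46, 3.71 and 2.67 CPM in -/-. Every -/- library was below every control, and flox/flox A stood far above the other controls. The log2 fold change was -1.95 ± 0.44, a 3.86-fold fall (adjusted p = 0.0131, edgeR). Without flox/flox A the fall was 2.49-fold. The call was lost without -/- B (adjusted p = 0.0515) and at a threshold of 0.01. The range over alternatives was 9.85e-06 to 0.0515. The Sp5 window is printed because Sp5 changed most among the targets, and it holds 2 matches.
Sp5 (chr2:70474673-70474972, plus strand): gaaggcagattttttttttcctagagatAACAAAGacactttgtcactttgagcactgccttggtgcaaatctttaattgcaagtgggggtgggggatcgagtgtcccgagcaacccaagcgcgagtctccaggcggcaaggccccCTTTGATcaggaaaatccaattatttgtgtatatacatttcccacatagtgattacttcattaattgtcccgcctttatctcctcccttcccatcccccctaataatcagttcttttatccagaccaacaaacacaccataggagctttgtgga
The letters CTTTGAT stand at -104 to -98 from the start, and CTTTGTT on the minus strand at -222 to -216.

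Apcdd1 (ENSMUSG00000071847, chr18:62922231-62961179, plus strand) encodes a membrane protein that binds Wnt and Lrp and inhibits the pathway that induces it. It measured 94.6, 64.2 and 52.4 CPM in flox/flox and 41.6, 34.9 and 36.8 CPM in -/-. The groups did not overlap, and the spread was wider among the controls. The log2 fold change was -0.90 ± 0.20, a 1.86-fold fall (adjusted p = 0.0123, edgeR). Without -/- B (0.0512) or at a threshold of 0.01 it did not pass, with a range over alternatives of 0.000111 to 0.0512.

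The antagonists moved apart from one another: Sfrp1 and Wif1 fell and Dkk1 rose. Sfrp1 (ENSMUSG00000031548, chr8:23411502-23449632, plus strand) encodes a secreted protein with a Frizzled-like domain that binds Wnts. It measured 184, 119 and 108 CPM in flox/flox and 46.1, 48.1 and 38.04 CPM in -/-. The groups were far apart, with a log2 fold change of -1.64 ± 0.20, a 3.11-fold fall (adjusted p = 0.00124, edgeR) that passed in all 15 settings. Wif1 (ENSMUSG00000020218, chr10:121033960-121100650, plus strand), a secreted Wnt-binding inhibitor, had few reads in either line. There were 49, 21 and 18 reads in libraries A, B and C of flox/flox (1.66, 0.798 and 0.717 CPM) and 3, 4 and 2 reads in those of -/- (0.0762, 0.113 and 0.0704 CPM). The groups did not overlap. Over the group sums of 88 and 9 reads, the level was 12.4-fold lower in -/- (95% interval 6.26 to 28.1, from an exact binomial interval that covers counting error only). The fitted log2 fold change was -3.56 ± 0.50 (adjusted p = 0.00194, edgeR). It passed in each of the 14 settings in which Wif1 was tested, and was -3.06 without flox/flox A. These settings use the same few reads and are no separate support. Only the flox/flox libraries held 10 reads or more, so Wif1 passed the low-count filter through the group where it was higher.

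Dkk1 (ENSMUSG00000024868, chr19:30545863-30549665, minus strand) encodes a secreted inhibitor of the Lrp coreceptors and is itself induced by Wnt signals. It measured 3.11, 2.13 and 2.07 CPM in flox/flox and 5.41, 7.003 and 3.55 CPM in -/-. All -/- libraries were higher, although -/- C lay close to flox/flox A. The log2 fold change was 1.13 ± 0.28, a 2.18-fold rise (adjusted p = 0.0182, edgeR). The call was lost without flox/flox B (0.0726), without -/- B (0.0581) and at a threshold of 0.01. The range over alternatives was 0.00121 to 0.0726. The Dkk1 window is printed beside that of Sp5 because both held 2 matches while the genes moved in opposite directions.
Dkk1 (chr19:30549447-30549746, minus strand): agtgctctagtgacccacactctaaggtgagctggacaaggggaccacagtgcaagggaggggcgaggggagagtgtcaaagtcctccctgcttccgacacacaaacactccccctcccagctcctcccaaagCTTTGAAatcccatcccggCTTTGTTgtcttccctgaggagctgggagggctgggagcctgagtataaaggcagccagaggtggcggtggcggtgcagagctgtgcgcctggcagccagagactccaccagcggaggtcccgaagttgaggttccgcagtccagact
CTTTGAA stands at -117 to -111 and CTTTGTT at -98 to -92 from the start, both on the gene's strand.

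**Figure D3:**
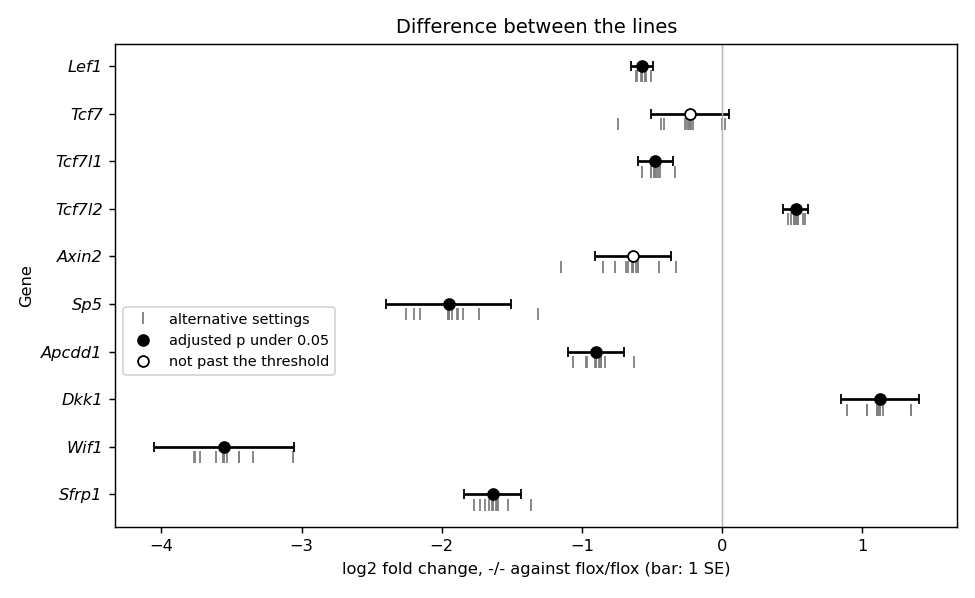
Log2 fold change of the 10 genes in the libraries labelled -/- against flox/flox with 1 SE (filled: adjusted p under 0.05; open: not past the threshold), and grey ticks for the values under the alternative settings. Dkk1 (1.13) and Tcf7l2 (0.52) lie above 0 with all ticks, and the ticks of Tcf7 reach 0.02.

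The fall of Sfrp1 stood beside a rise of its relative Sfrp2, which encodes a secreted protein of the same family. Sfrp2 had the smallest adjusted p of the listed antagonists outside the 10 genes (log2 fold change 2.43 ± 0.11, 5.39-fold, adjusted p = 7.68e-05, edgeR). Per length, Sfrp1 measured 42.1, 27.3 and 24.6 RPKM in flox/flox and 10.6, 11 and 8.70 RPKM in -/-. Sfrp2 measured 25.3, 30.1 and 34.1 RPKM in flox/flox and 162, 165 and 155 RPKM in -/-. Sfrp1 and Sfrp2 thus overlapped in the controls, and Sfrp2 was 15.04- to 17.8-fold above Sfrp1 in -/-. Sfrp1 made up 45.0 ± 7.09% of the summed RPKM of Sfrp1, Sfrp2, Frzb, Sfrp4 and Sfrp5 in flox/flox and 5.82 ± 0.488% in -/- (SD, n = 3). The sum itself was 68.7 ± 9.60 RPKM and 173 ± 6.79 RPKM. These shares were chosen after the values were seen and were not tested.

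**Figure D4:**
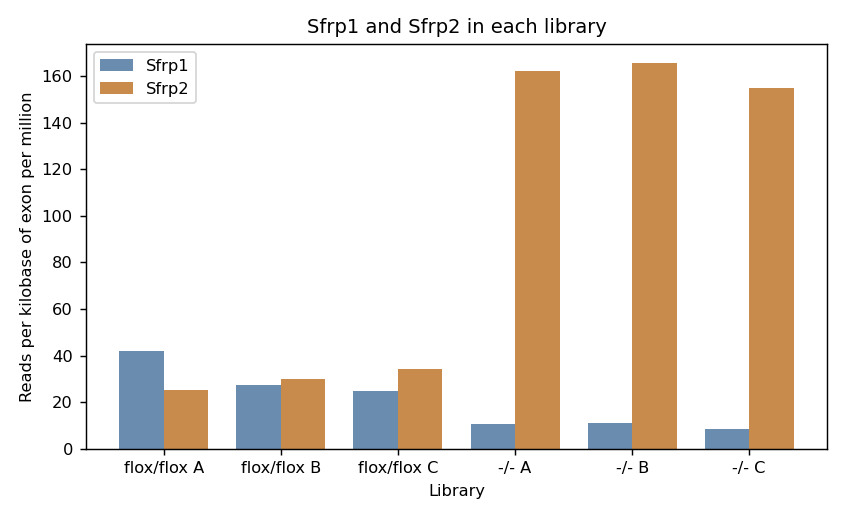
Sfrp1 and Sfrp2 in RPKM, 1 pair of bars per library. Sfrp1 is between 24.6 and 42.1 in flox/flox and between 8.70 and 11 in the libraries labelled -/-, where Sfrp2 is between 155 and 165.

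Over all 10 genes, Sfrp1 (31.3 ± 9.42 RPKM) and Axin2 (29.3 ± 10.6) had the highest levels per length in flox/flox and overlapped one another (SD, n = 3). They were followed by Tcf7, Tcf7l1, Sp5 (7.32 ± 4.50), Apcdd1 (5.46 ± 1.69) and Lef1, each overlapping the next, and then by Tcf7l2, Dkk1 (1.00 ± 0.240) and Wif1 (0.435 ± 0.214), each apart from the one before. In -/- Axin2 stood alone at the top (18.9 ± 4.27), followed by Sfrp1 (10.1 ± 1.22), Tcf7 and Tcf7l1, of which neighbours overlapped. Tcf7l2, Lef1, Apcdd1 (2.93 ± 0.270), Dkk1 (2.19 ± 0.711) and Sp5 (1.88 ± 0.672) came next and overlapped in turn, and Wif1 was last (0.0357 ± 0.0096).

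The libraries of a line differed in a shared way. Flox/flox A was the highest control for 8 of the 10 genes, all but Tcf7l1 and Tcf7l2, and -/- C was the lowest -/- library for 8 of 10, all but Lef1 and Apcdd1. The same held for 37.8% and 41.1% of all genes tested. The summed hem and roof plate markers were also highest in flox/flox A and lowest in -/- C. Their list includes the pathway genes Wnt8b, Rspo2 and Rspo3, so this sum is no separate readout of cell type, although other genes of the list also fell. The summed neuronal markers were lowest in flox/flox A and highest in -/- C. The part of either sum in the values of the 10 genes was not tested. The summed level of 12 thalamic and diencephalic markers overlapped between groups, at 182, 216 and 293 CPM in flox/flox and 288, 314 and 423 CPM in -/-. Of these 3 rose, 2 fell and 7 were not called. Lhx9, a thalamic gene, rose from 29.1 to 115 CPM on average, and Barhl2 and Sox14 also rose. Irx1 fell from 13.1 to 8.88 CPM and Irx2 from 20.9 to 12.5 CPM. Gbx2, a gene of the thalamus, was not called at 5.41 and 5.47 CPM. Whether these markers have a part in the rise of Tcf7l2 was not tested.

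By the root mean square difference of centred log2 CPM over the 6 libraries, the genes most like Lef1 among 11507 compared were Elmo1 (0.0238), Mios (0.0403) and Zbed3 (0.0419). Those most like Tcf7l2 were Mrpl14 (0.0322), Pelp1 (0.0381) and Mettl16 (0.0383), of which Pelp1 and Mettl16 lie on chromosome 11. Those most like Axin2 were Myrf (0.0613), Zic4 (0.0867) and Tenm4 (0.0925). None of these passed (adjusted p = 0.107, 0.122 and 0.0674, edgeR). They were chosen for values like those of Axin2, so this is no separate result. All share the same 6 libraries and their scaling.

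The other genes of the pathway, in 7 lists by role, passed in 59 of 101 tested genes (58.4%, beside 35.3% of all genes), with 24 higher and 35 lower. Their median log2 fold change was -0.09. Without flox/flox B 15 rose, and without -/- B 23 fell. Of 15 tested Wnt ligands 1 rose and 8 fell, with a median of -0.996. Wnt8b, a ligand of the hem, fell 5.20-fold from 357 ± 124 to 68.7 ± 16.9 CPM (SD, n = 3), and Wnt9a on chromosome 11 fell 6.32-fold. Wnt7a rose from 4.61 ± 3.30 to 34.7 ± 5.61 CPM, and Wnt7b, the ligand with the most CPM, was at 598 ± 88.7 and 717 ± 25.8 CPM without passing. Without -/- B 5 ligands fell, and 2 rose without flox/flox C, without -/- C, with no low-count filter or with the replicate block. Of 8 tested R-spondins, Lgr receptors and E3 ligases 4 fell and 2 rose, with a median of -0.82. The Wnt enhancers Rspo3 and Rspo2 fell 3.76-fold and 6.02-fold, Rspo2 having the most CPM of the list. Among their receptors, Lgr4 and Lgr5 rose 1.21-fold and 1.81-fold, and Lgr6 fell 6.67-fold (adjusted p = 0.00500, edgeR). Lgr5 and Lgr6 were low, at 1.22 and 1.23 CPM in flox/flox and 2.21 and 0.181 CPM in -/- on average. The 2 rises were 0 without flox/flox B, without -/- A, without -/- C or at a threshold of 0.01, 1 without flox/flox C, without -/- B or with limma-voom, 3 without flox/flox A, and 4 with the replicate block.

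Of 15 tested receptors 8 fell and 2 rose, with a median of -0.30. The Frizzled gene Fzd10 fell 2.38-fold and Ryk, a coreceptor, 1.23-fold, while Fzd2 on chromosome 11 and Fzd7 rose 1.36-fold and 1.24-fold. Fzd3, with the most CPM of the list, fell 1.15-fold. Without flox/flox A or without -/- B 5 receptors fell, and 1 rose without flox/flox B, without -/- B, without flox/flox C and with the chromosome 11 offset. Of 16 cytoplasmic transducers 7 rose and 1 fell, with a median of 0.18, and 3 of the 7 rises were on chromosome 11. They included Dvl2 and Csnk1d (both on chromosome 11), a Dishevelled and a casein kinase 1 gene, which rose 1.73-fold and 1.44-fold. Csnk1a1, the kinase that primes beta-catenin, fell 1.19-fold, a call lost without flox/flox B, without -/- B or at a threshold of 0.01. Ctnnb1, which encodes beta-catenin and had the most CPM of the list, measured 1469 ± 42.5 and 1341 ± 52.2 CPM and was not called, with a log2 difference of -0.13 ± 0.05 and an adjusted p of 0.103 in edgeR. With the offset 5 transducers rose.

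Of 16 nuclear partners 6 rose and 3 fell, with a median of 0.11. Bcl9l, a beta-catenin coactivator, fell 1.44-fold and the Groucho corepressor Tle3 1.48-fold, while Nlk (on chromosome 11), a kinase that acts on Tcf/Lef factors, rose 1.45-fold and the corepressor gene Cbfa2t2 1.90-fold. Ctbp1, a corepressor gene with the most CPM of the list, was not called at 317 ± 20.6 and 298 ± 15.3 CPM. Of 17 tested antagonists outside the 10 genes 5 rose and 4 fell, with a median of -0.30. Beside Sfrp2, Igfbp4 (on chromosome 11), which encodes a secreted IGF-binding protein, rose 2.43-fold, while Tpbg, a membrane inhibitor, fell 2.59-fold and the Sfrp family gene Frzb 4.00-fold. Without flox/flox B 3 antagonists rose, and without -/- B 2 fell. Of 14 other target genes 1 rose and 7 fell, with a median of -0.54. Sp8, a relative of Sp5, fell 6.20-fold, and the homeobox gene Cdx2 2.75-fold. Dact1, a Dishevelled-binding regulator, rose 1.91-fold, and the cyclin gene Ccnd2, with the most CPM of the list, fell 1.36-fold. Without flox/flox A or without -/- B 4 targets fell, and 2 rose with the replicate block, with no low-count filter or with the DESeq2 Wald test.

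**Figure D5:**
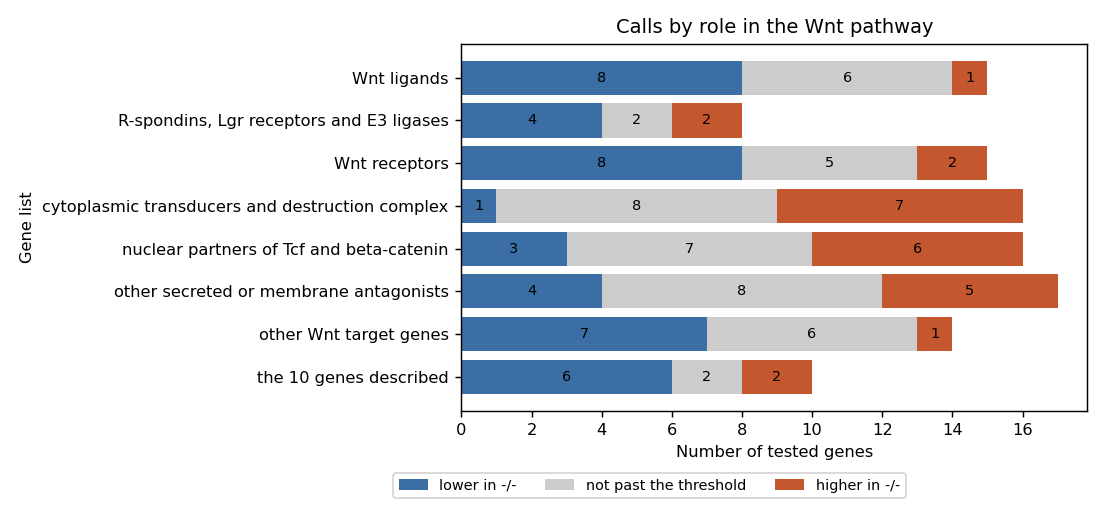
Number of tested genes per list that were lower (blue), not past the threshold (grey) or higher (orange) in the libraries labelled -/-. Ligands, receptors and targets have more falls than rises (8 and 1, 8 and 2, 7 and 1), while the cytoplasmic transducers have 7 rises and 1 fall.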

How the data were processed

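Reads were handled with BWA 0.5.9 and featureCounts 1.4.6 on mm10 (GRCm38), per the submitters' processing notes. The authors deposited 1 table of raw read counts per Ensembl gene. The sources used here do not give the annotation, the strand setting or the treatment of multiply mapped reads. The table's name says that duplicates were marked, but not whether marked reads were counted. Column names hold a genotype and a letter (A, B or C), so each library has a group but no sample number from the labels. Positions and exon lengths came from GENCODE M21 on GRCm38, and 48144 of 48526 identifiers had a symbol. Replicates differed by more than sampling noise (chi-square per gene 5.47 to 29.8) and entered separately.

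Counts were fitted in R 4.3.3 with edgeR 4.0.16 (filterByExpr with a minimum count of 10 and total of 15, TMM, group only, quasi-likelihood test, two-sided) over 20549 genes, with Benjamini-Hochberg adjustment. On simulated data the test missed some 2-fold and fewer 4-fold changes, and its share of false calls was slightly above the threshold. Changes below 2-fold, as for several of the 10 genes, were not simulated. Each SE is the size of the log2 fold change divided by the square root of F. "Rose" and "fell" mean past adjusted p = 0.05. RPKM used TMM-scaled library sizes and the union of exons. Deviations of libraries with the same column letter correlated over genes (0.275, 0.101 and 0.264 for A, B and C). Between different letters the correlations ran from -0.298 to 0.0316. Deviations were centred within each line, which ties these values to those of equal letters, so the contrast is partly built in. The letters stand in the column names, but the labels do not say that equal letters pair libraries across the lines. The letter thus entered only as an alternative setting. These correlations come from the same counts as the tests and are no separate check of the pairing. A call gained with the block rests on a pairing that the labels do not state. Beside the 10 genes, up to 2 genes per direction in each pathway list, those of smallest adjusted p, and the gene of highest mean CPM in each list are named. Lgr6 is named in addition, as a receptor beside Lgr4 and Lgr5. The genes most like Lef1, Tcf7l2 and Axin2 were sought among genes whose mean level was 5 CPM or more. The genes and lists were chosen with earlier results of these data known. Alternatives were DESeq2 size factors, upper-quartile scaling, 2 other filters, DESeq2 1.42.0, limma-voom (limma 3.58.1), a threshold of 0.01, the column letter as a block, a chromosome 11 offset of 0.516 (log2) and each library left out. No protein sequences were used here.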

Additional observations from a re-analysis of the deposited data

How the results depend on the processing

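At a threshold of 0.01, 4 of the 10 genes passed (1 rose and 3 fell) and 36 genes of the 7 lists (15 rose and 21 fell). Leaving out 1 library gave 4 to 8 genes of the 10, with 1 to 2 rises and 3 to 6 falls, and 40 to 61 genes of the lists, with 15 to 23 rises and 23 to 38 falls. With the column letter as a replicate block all 10 genes passed, 2 higher and 8 lower, and 72 genes of the lists. Among the 10 genes only Tcf7 and Axin2 changed their call. Calls over all genes moved in the same way, from 7250 in the fit by group only. They were 8529 with the block, 3887 at a threshold of 0.01 and 4717 to 6846 with 1 library left out. The log2 difference of Tcf7 ran from -0.43 to 0.024 when 1 library was left out, turning sign without flox/flox A. For the other 9 genes no alternative changed the sign. Wif1 was not tested under the filter of 1 CPM in at least 3 libraries, where 7 genes passed. Scaling by DESeq2 size factors or the upper quartile, no filter and limma-voom kept the number at 8, while DESeq2 and the chromosome 11 offset gave 9. Depth limits Wif1 most, with 2 to 4 reads in each library labelled -/-. With CTTTGAT alone, 1 promoter window of the 13 held a match in place of 4.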
